A study of Mus musculus with 6 samples.

Results

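The AP-1, EGR and NR4A immediate early genes described here are 10 genes of the deposited table, taken by symbol: Fos, Fosb, Fosl2, Jun, Junb, Jund, Egr1, Egr2, Egr3 and Nr4a1. All 10 were found among 55487 gene IDs, and 9 of them passed the filter on low counts that left 13794 genes for testing, while Fosl2 did not. RNA came from marginal zone (MZ) B cells of 14-week-old mice, a splenic subset that answers early to antigens in the blood. B cells were enriched by negative selection and MZ B cells were then sorted by flow cytometry. One group, WT, held 3 libraries from wild-type C57BL/6 mice, and the other, CD55KO, held 3 libraries from mice without CD55, a membrane protein that limits complement activation. The strain background of the CD55KO mice, the deleted part of the gene, any pooling of animals and the times between killing, sorting and lysis are not stated in the labels. Since the labels do not tie each library to its own mouse, p-values rest only on library-to-library spread, part or all of which may be technical.

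Immediate early genes are switched on within minutes of a signal, from factors already present in the cell and without new protein synthesis. FOS proteins pair with JUN proteins to form AP-1, which binds DNA through a basic region and a leucine zipper. EGR proteins are zinc finger factors, and NR4A1, also called NUR77, is an orphan nuclear receptor. In B cells the antigen receptor, through calcium and the MAP kinase ERK, induces EGR genes and Nr4a1, and NR4A1 reporters are used to read antigen receptor signalling. Tissue dissociation and cell sorting are also known to induce FOS, JUN and EGR genes, so the level in each library is given.

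The 250 bases before the start site of Fos and Fosb, the members with the largest difference between the genotypes, are shown first. Nr4a1, the member with the highest level per length, is shown beside them as a gene whose libraries overlapped. The Nr4a1 window lies inside the annotated gene (101254269 to 101274795), before the RefSeq start used, so starts farther upstream were not covered. Sequences are from RefSeq on GRCm38.p6, read 5′ to 3′ on the strand of the gene, at chr12:85473640-85473889 (plus strand), chr7:19310046-19310295 (minus strand) and chr15:101266596-101266845 (plus strand). Capitals mark the half-site of the cyclic AMP response element (TGACG, the motif of CREB factors) and the EGR site (GCGNGGGCG), on either strand.
Fos: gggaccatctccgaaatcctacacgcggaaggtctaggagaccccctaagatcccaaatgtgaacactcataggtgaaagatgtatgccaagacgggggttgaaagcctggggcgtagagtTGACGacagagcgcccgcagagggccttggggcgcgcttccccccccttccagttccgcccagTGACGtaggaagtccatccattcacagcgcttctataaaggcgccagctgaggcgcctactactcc
Fosb: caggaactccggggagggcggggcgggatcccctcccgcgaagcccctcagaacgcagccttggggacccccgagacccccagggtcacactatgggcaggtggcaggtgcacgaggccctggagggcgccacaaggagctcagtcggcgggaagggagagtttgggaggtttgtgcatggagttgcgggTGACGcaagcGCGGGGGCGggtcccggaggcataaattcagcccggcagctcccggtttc
Nr4a1: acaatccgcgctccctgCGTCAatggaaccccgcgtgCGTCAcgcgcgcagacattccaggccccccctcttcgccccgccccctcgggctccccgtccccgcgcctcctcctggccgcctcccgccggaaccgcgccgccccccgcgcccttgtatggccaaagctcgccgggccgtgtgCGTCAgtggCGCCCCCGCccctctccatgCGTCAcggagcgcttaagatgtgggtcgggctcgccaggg
Fos held 2 half-sites, at 129 to 125 and 66 to 62 bases before the start. Fosb held 1 half-site, at 60 to 56 bases before the start, and an EGR site at 50 to 42. Nr4a1 held 4 half-sites and 1 EGR site, all on the opposite strand.

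RefSeq promoters of 8 members were searched, all but those of Egr1 and Egr3. The search of members left out chromosome 18, where Egr1 lies. The half-site was present in 5 of the 8 (Fos, Fosb, Junb, Egr2 and Nr4a1), against 17.8% of 32851 promoters searched. No chromosome was left out of those 32851 promoters. The EGR site was present in 3 (Fosb, Fosl2 and Nr4a1), against 4.7% of promoters. The core of the serum response element, the site of SRF, was found before 1 member, Egr2, against 1.47% of promoters. Only 250 bases before each start were searched, so sites farther upstream would be missed. Egr2 has 5 listed start sites whose windows overlap in part, and a match before any of them was counted. Members were thus counted by gene and the percentages by single promoter, without matching for base composition. Enrichment was not tested. Neither the full cyclic AMP response element (TGACGTCA, which contains the half-site), the AP-1 site (TGANTCA) nor the NR4A site (AAAGGTCA) was found before a member. These are present in 1.55%, 6.75% and 1.34% of promoters.

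Libraries held 20056064 to 30784031 counts, and Cd55 stood at 154 to 244 counts in the CD55KO libraries and 2580 to 3715 in the WT libraries. Along principal component 1, which held 28.8% of the variance, WT replicate 1 and CD55KO replicate 3 lay at opposite ends. Summed over 6 B cell markers the level was 13020 to 15080 CPM, and over 6 MZ markers, Cr2 and Notch2 among them, 2877 to 3201 CPM. Markers of neutrophils (0 to 0.355 CPM over 6 genes, of which Ly6g, Elane and Camp were at 0 in every library) and of T and NK cells (0.287 to 1.37 CPM over 7 genes, Ncr1 at 0) were near 0. Erythroid transcripts were uneven, at 1989, 1590 and 35.8 CPM over 6 genes in CD55KO replicates 1 to 3 and 4351, 356 and 105 CPM in WT replicates 1 to 3. Over 9 macrophage markers the sum was 25.6, 21.9 and 23.1 CPM in CD55KO and 22.6, 18.8 and 14.9 CPM in WT, in the same order. Plasma cell markers (6 genes) summed to 143 to 160 CPM in CD55KO and 173 to 231 CPM in WT, and germinal centre markers (6 genes) to 16.5 to 26.7 and 24.0 to 71.9 CPM. Of these, the edgeR test used below called Xbp1 (adjusted p = 0.00471) and Gcsam (0.0343). Both were lower in CD55KO, as were 0.261% of all tested genes at that threshold. Irf4, also in the plasma cell list, overlapped between the genotypes. Dendritic cell markers came to 4.97 to 7.58 CPM over 5 genes and platelet markers to 0.462 to 1.17 CPM over 5. In bulk RNA, fewer cells with a transcript and less of it per cell cannot be told apart.

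Together the 10 genes took a very small share of the RNA in these cells. Their counts made up 0.0174% (95% Wilson interval 0.0169 to 0.0179%), 0.0162% (0.0157 to 0.0167%) and 0.0139% (0.0134 to 0.0143%) of CD55KO replicates 1 to 3. In WT replicates 1 to 3 the shares were 0.0161% (0.0155 to 0.0166%), 0.0146% (0.0142 to 0.0151%) and 0.0125% (0.0121 to 0.0129%). The genotypes overlapped, with 0.0158 ± 0.0018% in CD55KO and 0.0144 ± 0.0018% in WT (SD, n = 3). These intervals cover counting error only.

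Per length, Nr4a1, Jun and Junb stood above the other members in every library. Levels per length are RPKM, the TMM-scaled CPM (counts scaled to a common library total) divided by the length in kilobases of all annotated exons of the gene merged. For genes with several isoforms, such as Fosb, that length exceeds any single transcript, so their RPKM is a low estimate. Nr4a1 had 14.2 ± 1.90 RPKM in CD55KO and 13.8 ± 1.20 RPKM in WT (SD, n = 3), which placed its mean over the 6 libraries above 77.8% of tested genes. Jun followed at 11.6 ± 2.46 and 11.3 ± 1.95 RPKM and Junb at 11.4 ± 1.49 and 9.61 ± 1.41 RPKM. The ranges of these 3 neighbours overlapped: Nr4a1 was above Jun in 5 of 6 libraries and Jun above Junb in 4 of 6. All 6 libraries had more Junb than Egr2, with no overlap of the ranges.

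Egr2 (3.29 to 4.01 RPKM), Jund (2.62 to 3.94 RPKM) and Fos (1.42 to 4.01 RPKM) came next and their ranges overlapped. Fos was above Egr3 (1.94 to 2.48 RPKM) in only 2 of 6 libraries, CD55KO replicates 1 and 2. Egr1 (0.563 to 1.03 RPKM) lay below Egr3 in all 6 libraries without overlap, and its range overlapped that of Fosb (0.584 to 1.16 RPKM). Fosl2 was last, at 0.0297 to 0.0644 RPKM. Within the EGR family Egr2 was thus the highest, at 3.30 to 7.01 times Egr1 per length, and Egr2 over Egr3 varied little, from 1.62 to 1.84.

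**Figure D1:**
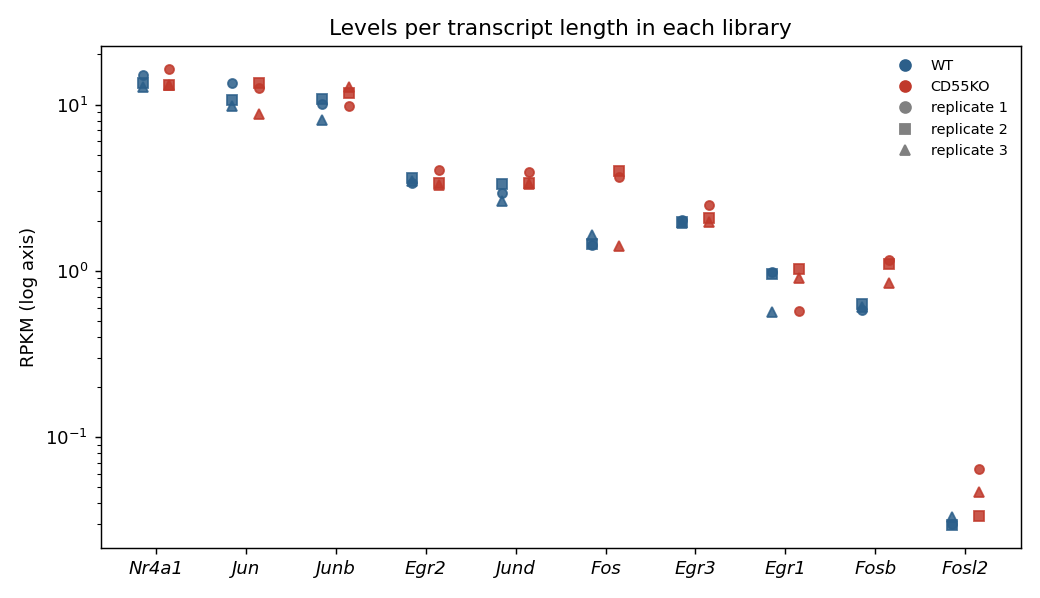
Level per length (RPKM, log axis) of each member in the 3 WT libraries (blue) and 3 CD55KO libraries (red), with the marker shape giving the replicate number. Nr4a1, Jun and Junb lie at 8.03 RPKM or above in every library, and Fosl2 lies at 0.0644 RPKM or below.

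Between the genotypes, no member passed the threshold in edgeR's quasi-likelihood test, an adjusted p of 0.05 over all genes tested. Over all 13794 genes 0.399% passed. At an unadjusted p under 0.05 stood 2 of the 9 tested members, Fos and Fosb, where 8.6% of all tested genes did. DESeq2 called 1 member, Fosb (0.994% of all genes with an adjusted p), with 2 at an unadjusted p under 0.05, and limma-voom called none (0.399% of all genes), with 1. The median log2 fold change (CD55KO against WT) came to 0.14 over the 9 members and 0.0015 over all genes tested. All 9 log2 fold changes were above 0, which 50.4% of all tested genes were, although that of Egr1 was 0.0006 and fell below 0 with DESeq2 size factors or library totals as the scaling. Libraries of the genotypes did not overlap for 2 of the 9 tested members, Fosb and Jund, both higher in CD55KO, a separation in that direction that 7.24% of tested genes had.

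**Figure D2:**
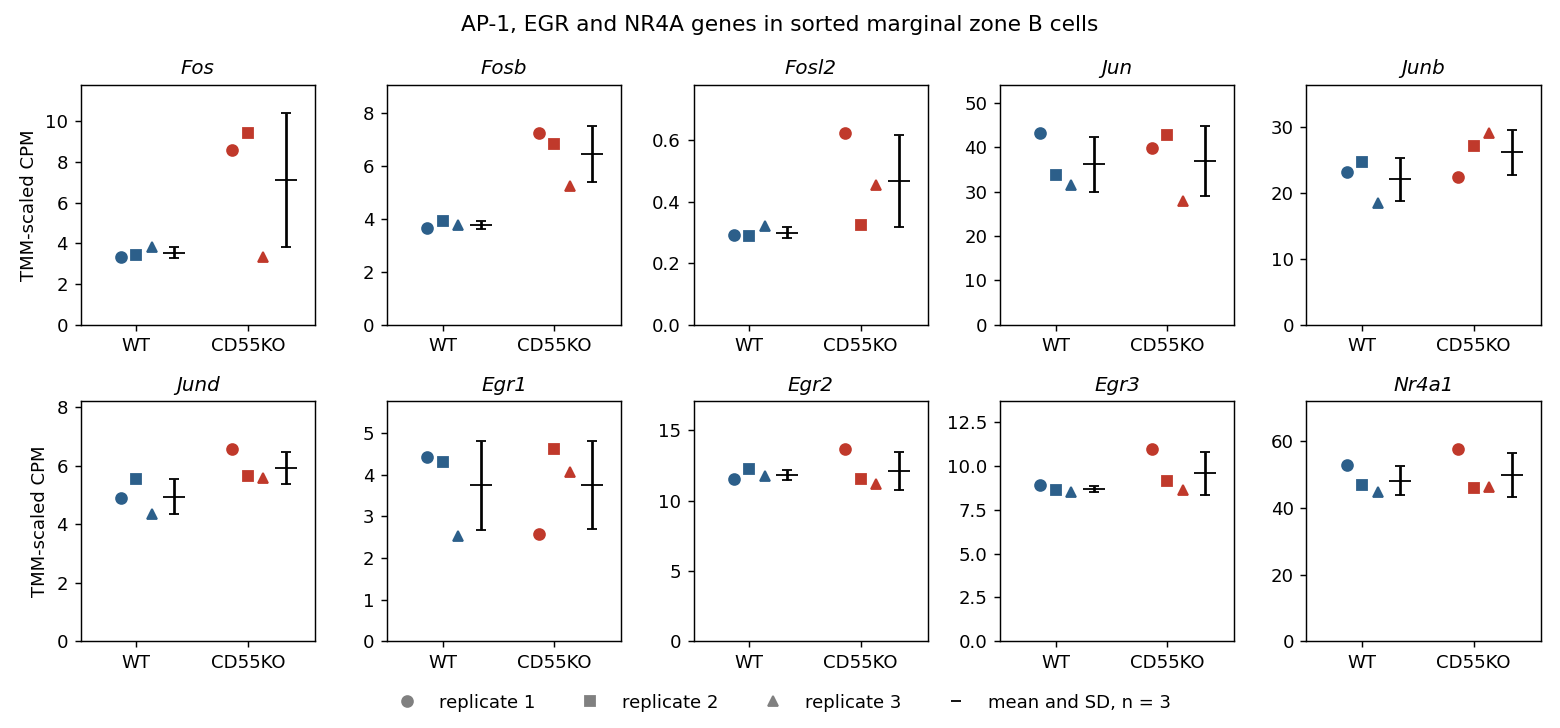
TMM-scaled CPM of each member in every library, with WT in blue and CD55KO in red, marker shapes for replicate numbers and a bar for the mean ± SD of 3 libraries. Fos is high in CD55KO replicates 1 and 2 only, Fosb is above the WT libraries in all 3 CD55KO libraries, and Jun, Junb, Egr1, Egr2, Egr3 and Nr4a1 overlap between the genotypes.

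The FOS genes held the largest differences. Fosb (chromosome 7, 19302696 to 19310051, minus strand, GRCm38), which encodes a FOS protein known also for a short, stable isoform, had 7.26, 6.84 and 5.25 CPM in CD55KO replicates 1 to 3. In WT replicates 1 to 3 Fosb had 3.64, 3.93 and 3.77 CPM. The lowest CD55KO library thus lay above the highest WT library, and the WT libraries lay close together. The means were 6.45 ± 1.06 and 3.78 ± 0.14 CPM (SD, n = 3), from 75 to 198 counts a library. Its log2 fold change was 0.77 ± 0.19 (SE), a fold of 1.70 with a 95% interval of 1.28 to 2.26, with an adjusted p of 0.132 by edgeR. The DESeq2 Wald test placed it past the threshold (adjusted p = 0.0447), and so did edgeR without the count filter (0.0350, where 0.977% of genes passed). Without 1 library in turn the adjusted p went from 0.0895 to 0.405, the latter without CD55KO replicate 2.

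Fos (chromosome 12, 85473890 to 85477273, plus strand), the founding member of the family and a short-lived partner of JUN, had 8.58, 9.43 and 3.33 CPM in CD55KO replicates 1 to 3. In WT replicates 1 to 3 Fos had 3.35, 3.42 and 3.84 CPM. CD55KO replicates 1 and 2 were high, while CD55KO replicate 3 was the lowest of all 6 libraries but almost level with WT replicates 1 and 2. The counts were 234, 233 and 95 in CD55KO and 69, 107 and 108 in WT. Its log2 fold change was 1.00 ± 0.34 (SE), a fold of 2.00 with a 95% interval of 1.18 to 3.39 (adjusted p = 0.410 by edgeR). The call depended on CD55KO replicate 3 and on the count filter. Without that library the log2 fold change was 1.34 (adjusted p = 0.00565, where 0.34% of genes passed). Over the 17 other settings its adjusted p ran from 0.000609, without the count filter, to 0.714, without WT replicate 2, and it was 0.0717 by DESeq2 and 0.691 by limma-voom. Around the genotype means Fos varied with a residual SD of 0.58 on the log2 scale, more than 92.3% of tested genes, and Fosb with 0.18, near the median of all tested genes of 0.16.

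Erythroid transcripts were at 1989 and 1590 CPM in CD55KO replicates 1 and 2, where Fos was high, and at 35.8 CPM in CD55KO replicate 3, where Fos was low. WT replicate 1, with 4351 CPM of erythroid transcripts, had 3.35 CPM of Fos. Of the 9 macrophage markers 6 were tested, 3 with positive and 3 with negative log2 fold changes, and edgeR, DESeq2 and limma-voom called none. An unadjusted p under 0.05 was given to 1 of them by DESeq2 and to 2 by limma-voom. By edgeR 1 of the 6 had an unadjusted p under 0.05, Cd68, named after its values were seen, a lysosomal glycoprotein of macrophages with 15.3 to 16.8 CPM in CD55KO and 10.7 to 13.2 CPM in WT (adjusted p = 0.209). Csf1r and Lyz2, which are also macrophage genes, had log2 fold changes of -0.45 and -0.48, and Vcam1 had -0.0035. Those of Adgre1 and C1qb were positive, at 0.65 and 0.49. The part of erythroid cells or macrophages in the difference of Fos or Fosb was not tested.

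Fosl2 (chromosome 5, 32135801 to 32157842, plus strand), which encodes the FOS-related protein FRA2, had 6 to 17 counts a library. That is 0.623, 0.324 and 0.455 CPM in CD55KO replicates 1 to 3 and 0.292, 0.287 and 0.320 CPM in WT. The CD55KO libraries lay just above the WT ones, by a margin of less than 1 count between the nearest libraries at this depth. In the fit without the count filter its log2 fold change was 0.64 (adjusted p = 0.785).

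JUN genes differed less. Jun (chromosome 4, 95049034 to 95052222, minus strand), the main partner of FOS, had 39.8, 42.8 and 27.9 CPM in CD55KO replicates 1 to 3 and 43.2, 33.8 and 31.4 CPM in WT. CD55KO replicate 3 was again the lowest library and WT replicate 1 the highest, so the genotypes were mixed. Its fitted fold was 1.02 with a 95% interval of 0.772 to 1.35 (adjusted p = 0.991 by edgeR). Junb (chromosome 8, 84974484 to 84978718, minus strand), a JUN protein that can hold back JUN, had 22.5, 27.1 and 29.2 CPM in CD55KO and 23.2, 24.7 and 18.5 CPM in WT. Here CD55KO replicate 3 was the highest library and WT replicate 3 the lowest. The fold of Junb was 1.19 (0.989 to 1.43, adjusted p = 0.615).

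Jund (chromosome 8, 70698949 to 70700616, plus strand), the JUN gene least dependent on stimulation, had 6.56, 5.66 and 5.57 CPM in CD55KO and 4.91, 5.56 and 4.37 CPM in WT. CD55KO replicate 3 and WT replicate 2 were almost level, so the separation of the genotypes rested on a very small gap. Its fold was 1.20 (0.918 to 1.57, adjusted p = 0.756). The kit does not mark strand, and each JUN gene overlaps a gene of the other strand, so shared reads cannot be told apart. Junos shares 232 exon bases with Jun and had 3 to 13 counts, Prdx2 shares 173 with Junb and had 110 to 131 CPM, and Gm11175 shares 877 with Jund and had 0 counts in every library.

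Because FOS proteins act only as partners of other factors, the families were also set side by side per length. Summed over Fos, Fosb and Fosl2 the level was 4.88, 5.14 and 2.30 RPKM in CD55KO replicates 1 to 3 and 2.04, 2.11 and 2.27 RPKM in WT. Summed over Jun, Junb and Jund it was 26.2, 28.6 and 24.8 RPKM in CD55KO and 26.6, 24.7 and 20.5 RPKM in WT. JUN transcripts were thus in excess in every library, and the FOS family came to 18.6, 18.0 and 9.29% of the JUN family in CD55KO and 7.67, 8.56 and 11.1% in WT. CD55KO replicate 3 lay within the WT range in this ratio. Fos, Fosb and Fosl2 have 4, 7 and 3 annotated transcripts, and Jun, Junb and Jund have 1, 2 and 1. Dividing by merged exon lengths may therefore make these percentages low estimates. Within the JUN family, Jun over Junb was 0.691 in CD55KO replicate 3 and 0.989 to 1.35 in the other libraries.

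EGR genes and Nr4a1 overlapped between the genotypes. Egr1 (chromosome 18, 34859823 to 34864984, plus strand), an early target of ERK signalling, had 2.57, 4.61 and 4.06 CPM in CD55KO and 4.42, 4.31 and 2.52 CPM in WT. CD55KO replicate 1 and WT replicate 3 were the low libraries, 1 in each genotype. The fold was 1.00 with a wide interval of 0.673 to 1.49 (adjusted p = 1.00), from 70 to 135 counts a library. Egr1 did not follow Fos, since CD55KO replicate 1 was high in Fos and low in Egr1.

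Egr2 (chromosome 10, 67535475 to 67542188, plus strand), an EGR factor that restrains lymphocyte activation, had 13.6, 11.5 and 11.2 CPM in CD55KO and 11.5, 12.2 and 11.7 CPM in WT. Egr3 (chromosome 14, 70077203 to 70082614, plus strand), which acts together with Egr2 in lymphocytes, had 10.9, 9.14 and 8.62 CPM in CD55KO and 8.89, 8.62 and 8.53 CPM in WT. For both genes CD55KO replicate 1 was the highest library and the other 5 lay close together. The folds were 1.02 (0.845 to 1.24, adjusted p = 0.981) and 1.10 (0.889 to 1.37, adjusted p = 0.861).

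Nr4a1 (chromosome 15, 101254269 to 101274795, plus strand) had 57.6, 45.9 and 46.2 CPM in CD55KO and 52.9, 47.1 and 44.8 CPM in WT, from 1090 to 1571 counts. Replicate 1 was the highest library in each genotype. Its fold was 1.04 and the interval, 0.893 to 1.20, was the narrowest of the members (adjusted p = 0.946 by edgeR). A difference of the size seen for Fosb lies outside this interval.

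**Figure D3:**
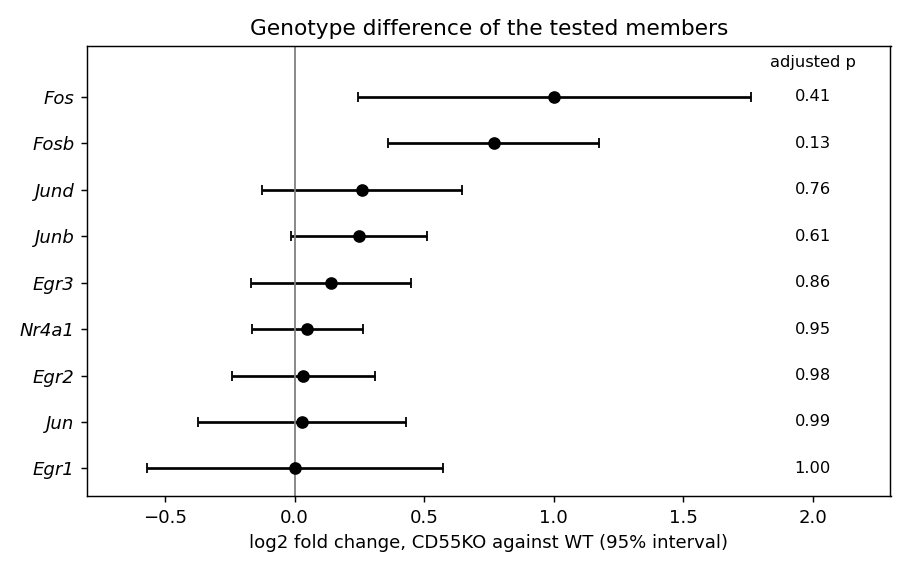
Log2 fold change of CD55KO against WT for the 9 tested members (points) with the 95% interval of the fit (bars) and the edgeR adjusted p at the right. The intervals of Fos and Fosb lie above 0 before adjustment for all genes tested, and those of the other 7 include 0.

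After each gene's mean over the 6 libraries was subtracted, the mean log2 CPM of the 9 tested members was 0.21, 0.24 and -0.06 in CD55KO replicates 1 to 3. In WT replicates 1 to 3 it was -0.06, -0.07 and -0.26. CD55KO replicate 3 lay at the level of WT replicates 1 and 2. The members did not share this mean profile. In CD55KO replicates 1 and 2 Fos (0.83 and 0.97) and Fosb (0.56 and 0.47) lay highest, while Egr1 was at -0.49 in CD55KO replicate 1. Among 9197 other genes with at least 5 CPM, the profiles nearest to the mean were those of Gm8369, Sirt4, Nod1, Cul9, 8030462N17Rik and Add3. Their root mean square differences from it over the 6 libraries were 0.034 to 0.0579 on the log2 scale. The median of the 9197 genes was 0.213. The 6 were picked for the smallest difference, so lying below that median followed from the choice. Nod1 encodes a sensor of bacterial peptidoglycan, Sirt4 a mitochondrial sirtuin, Cul9 a cullin and Add3 an adducin of the membrane skeleton. None of the 6 passed the threshold by edgeR (adjusted p from 0.357 to 0.734).

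The rest of the pathway was followed in 7 further lists, and in none of them did edgeR call a member (0.399% of all genes passed). Over all tested genes 8.6% had an unadjusted p under 0.05. Libraries of the genotypes did not overlap for 7.24% of tested genes higher in CD55KO and 6.84% lower. The genes named were picked by small p, which favours separation. Among other AP-1 and MAF genes, 7 of 13 were tested, 5 with positive log2 fold changes (median 0.07), and 2 had an unadjusted p under 0.05, Atf2 and Batf. Batf, a partner of JUN that is needed for class switching, had 21.0, 24.3 and 22.5 CPM in CD55KO and 18.8, 19.3 and 20.2 CPM in WT, a log2 fold change of 0.22 ± 0.10 SE (adjusted p = 0.570). Atf2, a stress-regulated partner of JUN, had 34.3 to 38.0 CPM in CD55KO and 29.5 to 31.7 CPM in WT (0.23 ± 0.09, adjusted p = 0.438). For both, CD55KO and WT libraries were apart, although the differences were small. Neither DESeq2 nor limma-voom called a gene of this list.

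Of the remaining EGR and NR4A genes and the NAB corepressors of EGR proteins, 3 of 5 were tested and each of the 3 log2 fold changes was below 0 (median -0.03), none with an unadjusted p under 0.05. Egr4 had 0 counts in every library, which allows up to 0.0958 to 0.146 CPM, and Nr4a2 did not pass the filter. Nab2 had 5.64 to 6.15 CPM in CD55KO and 6.64 to 7.19 CPM in WT, without overlap (-0.24 ± 0.16 SE, adjusted p = 0.742). Nr4a3, a close relative of Nr4a1, was at 0.257 to 0.990 CPM in all libraries (adjusted p = 0.997).

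Upstream factors and kinases differed little. All 15 SRF, TCF, MEF2 and CREB factors were tested, with a median log2 fold change of 0.03 and none at an unadjusted p under 0.05 by edgeR, DESeq2 or limma-voom. The smallest p belonged to Elk3, a partner of SRF, with 39.6 to 44.1 CPM in CD55KO and 35.3 to 40.2 CPM in WT (adjusted p = 0.666), and Mrtfb, an SRF coactivator, with 20.7 to 29.9 and 20.4 to 23.8 CPM (0.696). For the MAP kinase cascade, 19 of 19 genes were tested with a median of 0.0050, and 2 had an unadjusted p under 0.05. Map3k1, a kinase upstream of JNK, had 352, 288 and 259 CPM in CD55KO and 258, 252 and 235 CPM in WT (0.27 ± 0.10 SE, adjusted p = 0.433). Map3k8, which activates ERK downstream of Toll-like receptors, had 46.5 to 57.3 and 39.6 to 47.5 CPM (adjusted p = 0.458).

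Among feedback genes, which encode MAP kinase phosphatases, SPRY and SPRED inhibitors and ZFP36 proteins that direct mRNA decay, 9 of 13 were tested with a median of -0.10. Dusp1 and Dusp5 had an unadjusted p under 0.05 and differed in direction. Dusp5, a nuclear phosphatase of ERK, had 0.880, 0.971 and 0.560 CPM in CD55KO and 1.89, 1.41 and 1.60 CPM in WT, without overlap (-1.02 ± 0.36 SE, adjusted p = 0.381). Dusp1, a phosphatase of p38 and JNK that is itself an immediate early gene, had 3.04, 5.02 and 6.06 CPM in CD55KO and 3.21, 2.65 and 3.70 CPM in WT (0.57 ± 0.26 SE, adjusted p = 0.563). Its highest library was CD55KO replicate 3, where Fos was about as low as in WT.

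Of 29 other immediate early genes 25 were tested, 18 with positive log2 fold changes, and the median was 0.08. At an unadjusted p under 0.05 stood 1 gene, Csrnp1, a nuclear protein induced with the AP-1 genes, with 66.8 to 78.0 CPM in CD55KO and 56.6 to 63.3 CPM in WT (0.24 ± 0.08 SE, adjusted p = 0.334). Klf4, a zinc finger factor, had 4.98 CPM in CD55KO replicate 2 and 1.49 to 2.23 CPM in the other libraries (adjusted p = 0.694). By DESeq2 and by limma-voom no gene of the feedback, MAP kinase or other immediate early lists was called.

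Heat shock genes, some of which are induced with immediate early genes when tissue is dissociated, lay on the other side. Of 12 genes 11 were tested, and each of these had a log2 fold change below 0 (median -0.34), where 50.4% of all tested genes were above 0. By edgeR none was called (0.399% of all tested genes were) and 5 had an unadjusted p under 0.05 (8.6% of all tested genes). DESeq2 called Hsph1 and Hspa8 (0.994% of all genes with an adjusted p), and limma-voom called Hsph1 (0.399% of all genes). Hsph1, an HSP110 chaperone, had 27.0, 40.9 and 39.6 CPM in CD55KO and 66.5, 77.7 and 62.4 CPM in WT (adjusted p = 0.0536 by edgeR). Hspa8, the constitutive HSP70, had 2524, 3558 and 3495 CPM in CD55KO and 4038, 5141 and 4453 CPM in WT (0.191). The list summed to 4896, 6422 and 6313 CPM in CD55KO replicates 1 to 3 and 7090, 8673 and 7606 CPM in WT. All CD55KO libraries were thus lower. The largest parts of the sum were Hspa8 and Hsp90ab1, the latter at 1459 to 1669 CPM in CD55KO and 1683 to 1941 CPM in WT. Hspa1a (0.243 to 3.02 CPM), Hspa1b, Hspe1, Dnajb1 and Bag3 overlapped between the genotypes. The other 6 tested genes did not overlap and were lower in CD55KO, as 6.84% of all tested genes were. The part of cell handling in the FOS or heat shock differences was not tested.

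**Figure D4:**
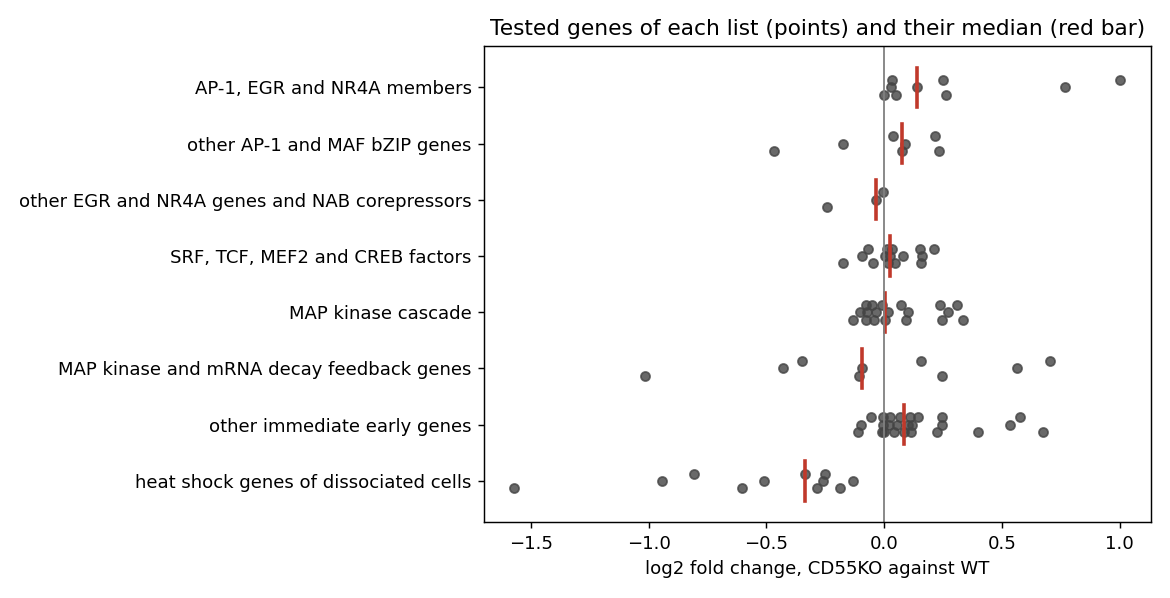
Log2 fold change of CD55KO against WT for the tested genes (points) of the AP-1, EGR and NR4A members and of 7 related lists, with the median of each list as a red bar. Medians lie between -0.10 and 0.14 for all lists but the heat shock genes, at -0.34.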

How the data were processed

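RNA of flow-sorted MZ B cells was sequenced from a kit for very small inputs that does not mark strand (SMARTer Ultra Low, per the labels' protocols). The authors deposited estimated counts per gene, unscaled, and DRAGEN, edgeR and limma are listed in the submitters' processing notes. The aligner's settings and the build and annotation used upstream are not stated there. Repeated rows of 168 gene IDs (identical values, 287 rows) were removed and counts rounded to whole numbers. Positions and exon lengths are from GENCODE on GRCm38, matched by gene ID (99.4% found).

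Genotypes were compared in edgeR 4.0.16 (R 4.3.3) with filterByExpr (minimum count 10, minimum total 15), TMM scaling and the robust quasi-likelihood test with genotype alone in the model, over 13794 genes, with Benjamini-Hochberg adjustment and a threshold of 0.05. Fold changes are CD55KO against WT. The test was checked on simulated data. Alternatives were DESeq2 1.42.0, limma-voom (limma 3.58.1) with and without quality weights, other scalings and filters, a non-robust fit, immunoglobulin genes left out, the replicate number as a block, and each library left out. Leaving out CD55KO replicate 3 and WT replicate 1 together was added after seeing the data.

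All members are named. From each of 7 related lists, up to 4 genes past the threshold were to be named, or failing that the 2 of smallest p, and so were the 6 genes with the most similar profile. Cd68 and other markers named come from 10 marker lists. Members and lists were chosen with earlier results of these data known.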

Additional observations from a re-analysis of the deposited data

How the results depend on the processing

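Over 17 other settings Fosb, Fos, Junb, Jund and Egr3 kept positive log2 fold changes. The number of members called was 0, as in the main result, except that it was 1 with the DESeq2 Wald test (Fosb), 2 without the count filter (Fos and Fosb) and 1 with CD55KO replicate 3 and WT replicate 1 left out together (Fos, log2 fold change 1.31, adjusted p = 0.0127, where 0.438% of genes passed). It ranged from 0 to 1 when each library was left out, the 1 being Fos without CD55KO replicate 3. Over all genes 55 were called, against 137 by DESeq2 and 232 without the count filter, and 37 to 53 with a library left out. The cause of these changes was not tested.

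Members near 0 changed sign. Egr1 went to -0.0045 with DESeq2 size factors, -0.0196 with library totals, -0.0046 by DESeq2 and -0.0006 without immunoglobulin genes, and Egr2 to -0.0087 by limma-voom with quality weights. With each library left out, Egr1 ranged from -0.22 to 0.21, Egr2 from -0.0586 to 0.0875, Jun from -0.0937 to 0.193 and Nr4a1 from -0.0651 to 0.120. Fosb ranged from 0.67 to 0.89 and Fos from 0.75 to 1.34.

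With the replicate block 64 genes and 0 members were called (Fosb adjusted p = 0.193). The labels do not say that a number pairs samples, and the deviations of same-numbered libraries correlated at 0.0746, -0.124 and 0.172 across genes, so the numbers were not taken as pairs, and not every library correlated best with its own number. Fosl2, at 6 to 17 counts, is limited by depth.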
